A study of Mus musculus with 6 samples.

Results

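Natural killer (NK) cells expanded with interleukin-15 (IL-15) as the only labelled stimulus are described here from 2 of the 6 libraries of a mouse series, replicates 1 and 3 as numbered in their titles. They were chosen by an expansion label that names IL-15 joined to its receptor alpha chain and no feeder cells, together with a treatment label of none. Both come from female C57BL/6 mice, whose age is not given in the sources used here. Per the labels' protocols the culture ran for 12 days with 10 ng/mL of this cytokine complex, and NK cells were purified from it before RNA extraction. The protocol text is shared by all 6 samples. It also names irradiated AgN2a-4P feeder cells and an antibody or isotype step of 4 h, which the labels of these 2 libraries do not carry, so it is unsettled whether they passed through an isotype step. Nothing says that the 2 libraries are from separate animals, so their spread may be technical.

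IL-15 keeps NK cells alive, drives their division and fills them with cytotoxic granules. It signals through the IL-2 receptor beta chain and the common gamma chain, which activate the kinases JAK1 and JAK3 and the transcription factor STAT5. NK cells kill by releasing perforin, which opens the target cell membrane, and granzymes, which are proteases that enter through it. Whether they do so is set by the balance of activating and inhibitory receptors, many of them encoded side by side in the NK gene complex.

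Levels were measured with nCounter probes, which count fluorescent barcodes hybridised to single RNA molecules. The value table held 498 endogenous genes, 20 housekeeping genes and 14 spike-in controls, as log2 values scaled to the housekeeping genes. A normalised count is 2 raised to that value. Whole counts could be recovered for 100% of the values and totalled 431783 in replicate 1 and 449264 in replicate 3. A probe count does not grow with transcript length, but probes capture their targets with unequal efficiency. Ranks and tiers below are therefore an order of probe counts, and small steps between genes carry no weight.

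Genes were sorted into tiers. The highest of the 8 negative controls had 11 counts in each library, and a gene at or below 11 counts in both was classed as silent. A count of 11 has an exact Poisson 95% interval of 5.49 to 19.7, which covers counting error only. A gene detected in both libraries was classed as abundant if its mean log2 value reached 9.22, the mean of the housekeeping genes (a normalised count of 596), and middle if it did not. The housekeeping genes themselves spread widely around that mean (SD 2.32 and 2.40 in the 2 libraries), so the upper boundary is a reference and not a natural break.

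Of the 498 genes, 84 were abundant, 336 middle and 46 silent, and 32 were detected in 1 library. Most of the immune genes measured were thus detected above background, but the signal was held by few of them. The 84 abundant genes took 83.3% of the summed normalised count in replicate 1 and 80.9% in replicate 3, while the 46 silent genes took 0.103% and 0.0971%. The 10 highest genes alone took 43.8% and 34.6%. The median gene had a log2 value of 6.55 in replicate 1 and 6.65 in replicate 3, between the tiers' boundaries.

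**Figure D1:**
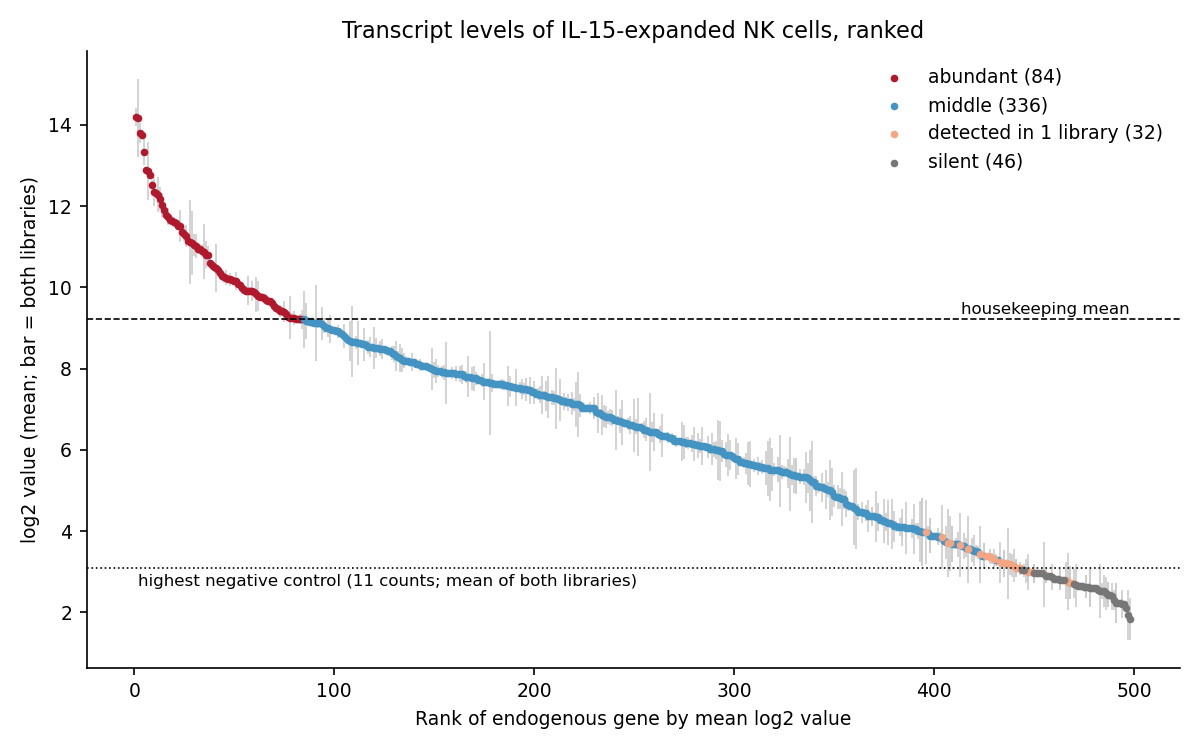
Endogenous genes in order of their mean log2 value (points), with a grey bar joining the values of the 2 libraries. The dashed line is the housekeeping mean (9.22) and the dotted line the highest negative control on the gene scale, averaged over both libraries. The curve drops steeply over the leading genes, then falls evenly through the 336 middle genes to 46 silent ones.

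The head of the ranking was the killing machinery, a secreted matrix protein and the receptor for the culture's own cytokine. The genes named as markers of these cultures, Gzma, Spp1, Gzmb and Prf1, held ranks 1, 2, 3 and 5. The 250 bases before their annotated transcription starts are shown because these genes are the named markers. They are taken from RefSeq on GRCm38.p6, in gene orientation: chr13:113100982-113101231 on the minus strand for Gzma, chr14:56262335-56262584 on the minus strand for Gzmb, chr10:61297586-61297835 on the plus strand for Prf1, and chr5:104434861-104435110 on the plus strand for Spp1. Capitals mark matches, on either strand, to 4 short motifs: the STAT motif TTCNNNGAA, the T-box motif TCACAC, the RUNX motif TGTGGT and the AP-1 motif TGANTCA.
Gzma: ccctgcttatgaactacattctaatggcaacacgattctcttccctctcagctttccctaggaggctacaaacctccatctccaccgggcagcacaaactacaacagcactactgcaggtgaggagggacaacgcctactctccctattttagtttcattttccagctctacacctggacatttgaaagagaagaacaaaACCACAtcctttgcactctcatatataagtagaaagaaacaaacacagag
Gzmb: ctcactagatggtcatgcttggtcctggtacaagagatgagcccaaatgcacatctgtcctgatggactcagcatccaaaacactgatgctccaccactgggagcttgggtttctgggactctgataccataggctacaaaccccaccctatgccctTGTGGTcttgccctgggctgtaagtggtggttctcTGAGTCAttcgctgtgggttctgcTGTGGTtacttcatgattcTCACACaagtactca
Prf1: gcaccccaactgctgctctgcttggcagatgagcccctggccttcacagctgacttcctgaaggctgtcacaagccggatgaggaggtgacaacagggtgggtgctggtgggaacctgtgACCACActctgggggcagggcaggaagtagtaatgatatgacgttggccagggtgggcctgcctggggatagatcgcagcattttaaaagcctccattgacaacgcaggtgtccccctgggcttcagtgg
Spp1: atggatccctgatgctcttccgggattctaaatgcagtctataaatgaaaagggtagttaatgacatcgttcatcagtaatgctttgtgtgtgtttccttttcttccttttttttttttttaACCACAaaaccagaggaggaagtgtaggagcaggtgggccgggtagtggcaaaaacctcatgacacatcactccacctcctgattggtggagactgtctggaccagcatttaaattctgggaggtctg
The RUNX motif had 1 match in the Gzma, Prf1 and Spp1 stretches and 2 matches in that of Gzmb, where the T-box motif and the AP-1 motif also had 1 match each. No 2 matches overlapped. Over 27025 RefSeq promoters of the same length, 1 per gene, 14.2% held the RUNX motif, 12.2% the T-box motif, 7.14% the STAT motif and 6.85% the AP-1 motif. A match describes these letters and does not show binding.

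Gzma, encoding granzyme A, had a normalised count of 16006 in replicate 1 and 21757 in replicate 3, a mean log2 value of 14.19 ± 0.31 (SD, n = 2). Gzmb, encoding granzyme B, was at 16804 and 12095, or 13.80 ± 0.34. Prf1, encoding perforin, was at 12804 and 8286, or 13.33 ± 0.44. All 3 stood in the 5 highest genes of each library, though Gzma led Gzmb in replicate 3 only. Spp1, encoding osteopontin, a secreted phosphoprotein that binds integrins and CD44, was the highest gene of replicate 1 at 35992 and the fourth highest of replicate 3 at 9445. Its mean of 14.17 ± 1.36 is loosely fixed: replicate 1 exceeded replicate 3 by 3.81-fold, and Spp1 took 11.8% of the summed count in the one and 3.40% in the other. Il2rb, encoding the receptor chain that binds IL-2 and IL-15, was far steadier at 14048 and 13666 (13.76 ± 0.03).

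The order beyond these leaders was held only in part. Of the 30 highest genes in each library, 24 were shared. Among the 29 pairs of neighbours in the joint ranking of the leading 30, 6 stood in the same order in both libraries, among them Il2rb above Prf1 and Prf1 above Lcp1, and the other 23 did not. Among the genes that came next were Lcp1, encoding an actin-bundling protein of leukocytes (7584 and 7714), Lgals3, encoding galectin-3 (12284 and 4522), Ifitm2, an interferon-induced membrane protein gene (7648 and 6461), Thy1, encoding a surface glycoprotein (6380 and 5458), and Anp32b, encoding a nuclear chaperone (4847 and 5482). Lgals3, like Spp1, was much higher in replicate 1, while Lcp1 differed by 0.02 on the log2 scale.

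The genes at ranks 12 to 30 belonged to several systems. Surface and adhesion genes were Klrd1, Selplg, Itgb1, Ptprc, Ncr1, Klrk1 and Cd55. Those of cytokines and their receptors were Xcl1, Mif, Ccr2 and Ifngr1. Those of antigen presentation and protein turnover were H2-D1, Psma2 and Psmb8, those of metabolism and its control Gpi1, Tfrc and Hif1a, and the last were Eomes and Ifitm1. Their mean log2 values ran from 11.05 for Ifngr1 to 12.28 for Klrd1. The widest gap between libraries among them was that of Cd55, encoding a complement regulator, at 4520 and 1079.

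The label was checked against marker genes, read beside 16.9% abundant and 9.24% silent over all 498 genes. Of 11 measured NK cell markers, 8 were abundant, 3 were middle and none was silent, with a summed normalised count of 56250 and 59904 in the 2 libraries. Most of this sum came from Gzma, Gzmb and Prf1, which are also the markers named for these cultures. Without them 5 of 8 were abundant and 3 middle, and the sum was 10635.5 and 17766.5. Ncr1, encoding the NK receptor NKp46, was at 2042 and 2946, and Eomes, the transcription factor of NK identity, at 2256 and 2254. The middle ones were Klrb1c, encoding NK1.1, at 366 and 964, Tbx21, encoding T-bet, at 67.6 and 82.7, and Itga2, encoding the DX5 antigen CD49b, at 50.9 and 41.0. T-bet and CD49b transcripts were thus far down the ranking, at ranks 271 and 320.

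Markers of other cells were below the abundant tier except Icos, and some stood well above background. Icos, Itga1, Ctsg, Cma1, Gata3 and Kit, at ranks 79, 98, 109, 149, 216 and 267, stood above the NK markers Tbx21 and Itga2. H2-Aa, at rank 316, stood above Itga2 only. Over all 498 genes, 420 were detected in both libraries, 32 in 1 library and 46 in none. The only T cell marker measured, Cd3d, had 27 and 88 recovered counts. Of 4 B cell markers 1 was detected in both libraries, Tnfrsf13c at 19 and 26 counts, and Cd22 and Btk were silent. Of 10 myeloid and dendritic cell markers 5 were detected in both libraries, 2 in 1 library and 3 in none, with a summed normalised count of 191 and 279. Csf1r, Trem1 and Xcr1 were the silent ones, and H2-Aa was the highest at 42 and 86 counts. Among 5 neutrophil and mast cell markers, Ctsg and Cma1, which encode the granule proteases cathepsin G and mast cell chymase, stood well above background at 891 and 304 counts and at 434 and 245. Kit, encoding the stem cell factor receptor, had 86 and 119 counts, Fcer1a had 18 and 12, and Mpo was silent. Ms4a2, the mast cell IgE receptor beta chain, which was picked after its values were seen, was silent at 8 and 8 counts. Of 6 markers of other innate lymphoid cells, Icos, at 786 and 779 counts, was the abundant one and Il17rb was silent. Itga1, encoding CD49a, was middle at 771 and 539 counts, as was Gata3 at 160 and 215. Il1rl1 was near the threshold at 12 and 15, and Il7r was detected in 1 library. In RNA pooled from the purified cells, few cells with much of a transcript and many cells with little cannot be told apart.

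**Figure D2:**
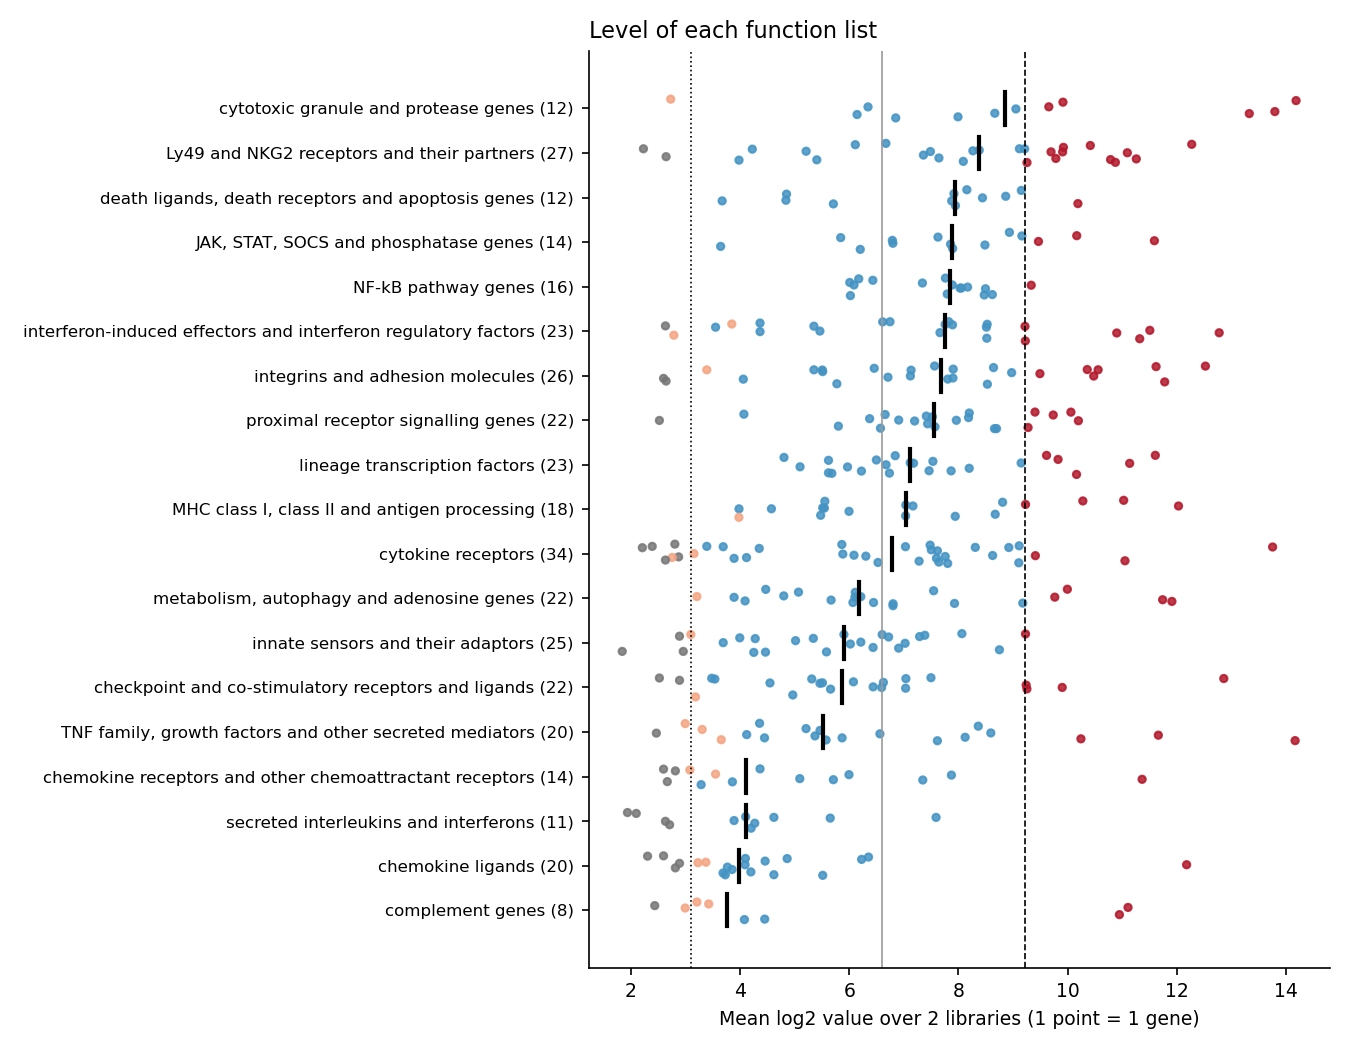
Mean log2 value of each gene (points) in 19 function lists, ordered by list median (black bars), with the number of measured genes in brackets. Colours give the tier (red abundant, blue middle, orange detected in 1 library, grey silent), and lines the housekeeping mean (dashed), the median of all 498 genes (solid grey) and the highest negative control averaged over both libraries (dotted). Cytotoxic granule genes have the highest median (8.86) and complement genes the lowest (3.75).

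Function lists covered 369 of the 498 genes in 19 groups. Their medians are read beside the median over all genes, a mean log2 value of 6.60, with 16.9% of all genes abundant and 9.24% silent. Cytotoxic granule and protease genes had the highest median, 8.86, with 5 of 12 abundant and none silent, and took 16.1% and 16.3% of the summed count. After Gzma, Gzmb and Prf1 came Ctsw, encoding cathepsin W, a protease of cytotoxic lymphocytes (753 and 1241), and Lamp1, a lysosomal membrane protein that marks degranulation (858 and 760). The granzyme genes were spread from top to bottom of the ranking. Gzmk was middle at 52.6 and 95.1, and Gzmm, with 6 and 12 recovered counts, passed the threshold in replicate 3 alone.

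Receptors and adaptors of NK cells had the next highest median, 8.38, with 11 of 27 abundant, 14 middle and 2 silent. Klrd1, encoding CD94, which pairs with NKG2A and NKG2C, was the highest at 3680 and 6684. Klrk1, encoding the activating receptor NKG2D, was at 1273 and 3766, and Klrc1, encoding the inhibitory NKG2A, at 900 and 1029. Klrc2, encoding the activating NKG2C, was at 290 and 1067. All 3 of these NKG2 genes were therefore detected, but Klrk1 and Klrc2 differed between libraries by 2.96-fold and 3.68-fold, both higher in replicate 3, and Klrc1 by 0.19 on the log2 scale.

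The Ly49 receptor genes covered most of the range. Klra7, encoding Ly49G, was the highest at 1173 and 3014, then Klra5 at 391 and 242 and Klra4, encoding the activating Ly49D, at 82.6 and 484. Klra2 (79.3 and 22.7), Klra6 (18.4 and 74.6) and Klra3 (28.4 and 8.78) were lower, and Klra20 and Klra17 were silent at 8 and 8 and at 6 and 6 counts. Klra4, Klra6 and Klra7 were higher in replicate 3, and Klra2, Klra3 and Klra5 in replicate 1. These genes are close paralogues, and probes may capture transcripts of a relative, so single Ly49 values are uncertain. Of the 15 Klr genes measured, 14 were placed in the RefSeq gene table, all on chromosome 6. Among these 14, Klrd1, Klrk1, Klrc2 and Klrc1 follow one another, and the silent Klra17 comes between Klrc1 and Klra5. Genes that were not measured were left out of this order and may lie between them.

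**Figure D3:**
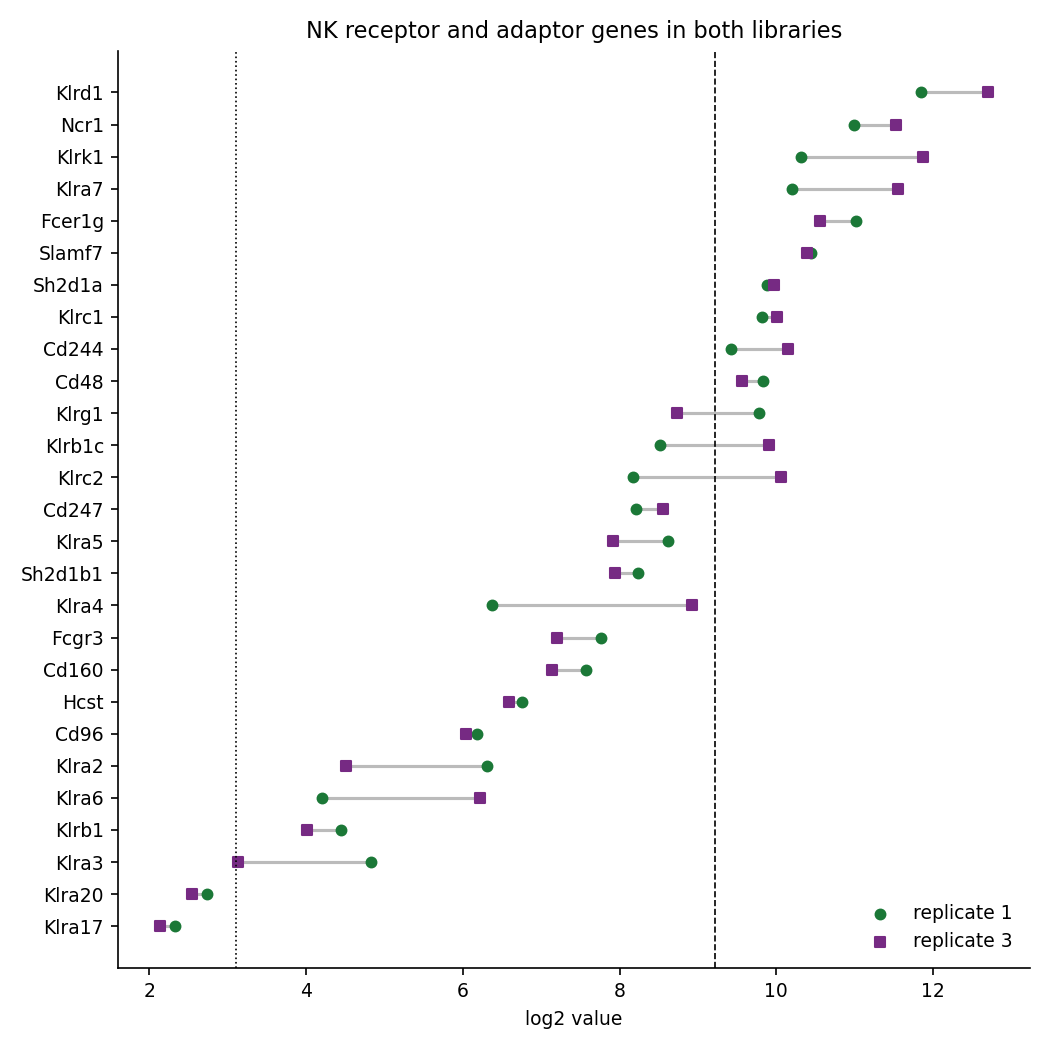
The log2 value of 27 NK receptor and adaptor genes in replicate 1 (green circles) and replicate 3 (purple squares), joined by a line, in order of their mean. Dashed and dotted lines are the housekeeping mean and the highest negative control averaged over both libraries; Klra4, Klra6, Klrc2 and Klrk1 lie to the right in replicate 3, and Klra2 and Klra3 in replicate 1.

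Signalling adaptors of these receptors were present at different levels. Fcer1g, encoding the Fc receptor gamma chain, was at 2075 and 1509, Cd247, encoding the zeta chain, at 296 and 376, and Hcst, encoding the NKG2D adaptor DAP10, at 108 and 96.6. None of these 3 differed by more than 0.46 on the log2 scale. Slamf7, Sh2d1a, encoding the adaptor SAP, Cd244, encoding 2B4, and its ligand gene Cd48 were abundant too. Klrg1, an inhibitory receptor of mature NK cells, was just above the boundary of abundance on average (880 and 426).

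Among checkpoint and co-stimulatory genes, 4 of 22 were abundant and 2 silent, with a median of 5.87. Lgals3 led, followed by Tnfrsf9, encoding the activation-induced receptor 4-1BB, at 1136 and 807. Icos was at 656 and 570, and Havcr2, encoding the checkpoint receptor TIM-3, at 682 and 538. Other inhibitory receptors on this list were lower: Tigit was at 127 and 135, Ctla4 at 152 and 61.4 and Lag3 at 73.4 and 102. The inhibitory receptor gene Klrc1, counted with the NK receptors above, was higher than Havcr2, at 900 and 1029. Pdcd1, encoding PD-1, was barely above the threshold at 12 and 17 counts. The ligand gene Cd86 and the adhesion receptor gene Cd2 were silent, the latter at 9 and 10 counts.

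Cytokine receptors had a median of 6.78, close to that of all genes, with 3 of 34 abundant and 5 silent. Besides Il2rb these were the interferon receptor genes Ifngr1 (1761 and 2562) and Ifnar1 (614 and 754). Il2rg, the common gamma chain, was at 508 and 604 and Il2ra, the high-affinity IL-2 receptor chain, at 575 and 272. Il15ra was low, at 31 and 22 recovered counts, and Il15 itself was silent at 7 and 9. The receptors for IL-12 and IL-18, cytokines that make NK cells release interferon gamma, were all detected, with Il18r1 at 416 and 731, Il18rap at 158 and 317, Il12rb1 at 184 and 173 and Il12rb2 at 211 and 178. The silent receptor genes were Csf1r, Il17rb, Il1rl2, Il13ra1 and Il1r2.

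In the 3 lists of signalling genes all members but Btk were detected in both libraries. None of the 14 JAK, STAT, SOCS and phosphatase genes was silent, and 3 were abundant: Ptprc, encoding the phosphatase CD45 (2879 and 3308), Jak1 (1082 and 1225) and Stat6 (690 and 726). Jak3 was at 189 and 207 and Stat5b at 225 and 252, and the feedback inhibitor Socs1 at 272 and 198, against Socs3 at 16 recovered counts in both. Of 22 proximal signalling genes 5 were abundant, led by the kinase gene Lck (1051 and 1314), and Btk was silent. All 16 NF-kB pathway genes were detected, 1 of them abundant (Chuk, an IkB kinase, at 687 and 607), and their means lay in the narrow range of 6.01 to 9.33.

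Secreted interleukins, interferons and chemokines had low medians. No secreted interleukin or interferon of 11 was abundant and 4 were silent, Il5, Il9, Il13 and Il15. The median was 4.10. Il16 was the highest at 198 and 188, and Ifng, the main NK cytokine, was at 34.2 and 73.9. Together the 11 genes took 0.113% and 0.138% of the summed count.

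Chemokine ligands had a median of 3.97, with 1 of 20 abundant and 4 silent. The abundant one was Xcl1, encoding lymphotactin, which attracts cross-presenting dendritic cells, at 3827 and 5644. The next, Ccl3, was at 56.7 and 118, followed by Ccl1 at 75.9 and 73.9 and Ccl4 at 26.7 and 78.3. Xcl1 thus stood apart from every other measured chemokine, while Ccl21a, Ccl22, Ccl26 and Cxcl16 were silent. Receptors showed the same shape: Ccr2, the receptor for inflammatory monocyte chemokines, was at 2584 and 2700 and was the only abundant one of 14. Cx3cr1, Ccr9 and Xcr1, the receptor of lymphotactin, were silent.

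Of 20 TNF family genes, growth factors and other mediators, 3 were abundant and 1, Tnfsf18, was silent. Behind Spp1 came Mif, encoding macrophage migration inhibitory factor (3213 and 3278), and Tgfb1 (1331 and 1107). Vegfa, an angiogenic factor gene, was at 511 and 293. Tnf, at 42.6 and 53.4, lay close to the list's median of 5.52, and Lta (13.4 and 31.5) and Csf2 (13.4 and 22.7) lay below it. Spp1 made this the list whose share of signal differed most between the libraries, 13.8% in replicate 1 and 5.53% in replicate 3.

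**Figure D4:**
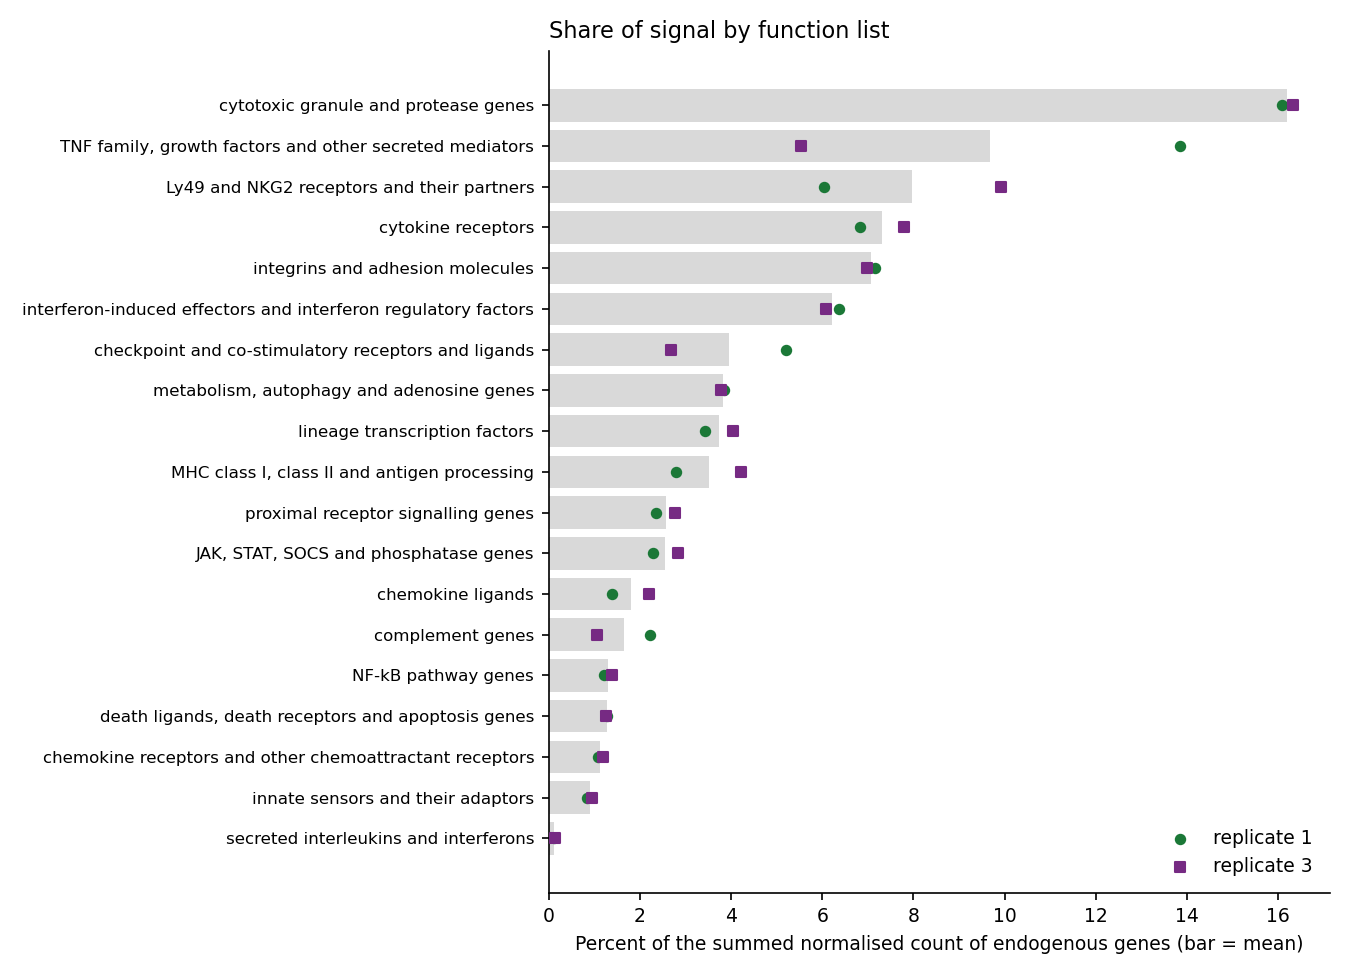
Share of the summed normalised count of the 498 endogenous genes taken by each function list, as the mean (bars) and the values of replicate 1 (green circles) and replicate 3 (purple squares). The cytotoxic list takes about the same share in both libraries (16.1% and 16.3%), and the list that holds Spp1 ranges from 5.53% to 13.8%.

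Death ligands and apoptosis genes were mostly in the middle tier, 11 of 12, with none silent. Fasl, the death ligand through which NK cells also kill, was at 268 and 219, and Tnfsf10, encoding TRAIL, at 54.2 and 50.5. Fas itself was at 19 and 14 recovered counts, near the threshold. The largest difference between libraries on this list was 0.63 on the log2 scale, of Fas.

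Among 23 lineage transcription factors none was silent and 5 were abundant. Hif1a, the oxygen-response factor, was at 3389 and 2878, Eomes at 2256 and 2254, Ets1 at 986 and 1336, Egr1 at 673 and 1226 and Xbp1 at 756 and 814. Eomes, which with T-bet directs NK maturation, was the more even of these between libraries. Tcf7, encoding TCF-1, a factor of less mature lymphocytes, was at 80.1 and 241, and Rora at 64.3 and 177, both higher in replicate 3. Gfi1 was higher in replicate 1, at 105 and 37.3.

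Interferon-related genes spanned the ranking. Of 23, 6 were abundant, 14 middle and 1 silent. Ifitm2, Ifitm1 (3807 and 2230), Psmb8, an immunoproteasome subunit (2273 and 2888), and Irf8, a transcription factor (2121 and 1726), were high. Irf1 and Irf2 were abundant too, near the boundary. Several other genes usually induced by type I interferon lay in the middle tier or lower. Isg20 had 625 and 350 recovered counts, Ifi35 468 and 472 and Bst2 255 and 264, while Isg15 had 29 and 24 recovered counts, Mx2 24 and 29, Ifit1 15 and 15, Oas2 6 and 13, and Ifit3, which was silent, 9 and 7. The sensor gene Ddx58, encoding RIG-I, was at 624 and 578 and was the only abundant gene of 25 innate sensors and adaptors, of which Tlr9, Irak3 and Ticam2 were silent.

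Of 18 antigen presentation genes 4 were abundant and none silent. The class I heavy chain genes H2-D1 (3425 and 5132) and H2-K1 (1702 and 2566) were abundant, as were the proteasome subunit genes Psmb7 and Psmd7. The transporter gene Tap1 was at 291 and 573. Another class I gene, H2-Q10, was much lower, at 31.7 and 65.8. The class II and invariant chain genes were in that range or below, with H2-Aa at 35.0 and 62.9, H2-Ab1 at 24.2 and 81.9 and Cd74 at 12.5 and 45.4. Of the 17 genes of this list detected in both libraries 12 were higher in replicate 3, with a median difference of 0.58 on the log2 scale. Over all 420 genes detected in both, 218 were higher in replicate 3 and the median difference was 0.02.

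Adhesion genes had 7 of 26 abundant: Thy1, Selplg, encoding the selectin ligand PSGL-1 (3659 and 3383), Itgb1 (3064 and 3245), Cd164, Pecam1, Spn and Itgal, the LFA-1 alpha chain (708 and 735). Vcam1 and Icam4 were silent. Itga1, encoding the tissue-residency marker CD49a, was at 643 and 394. Of 8 complement genes only Cd55 and C1qbp (2160 and 1813) were abundant, and no other exceeded 36 recovered counts. Among 22 metabolism, autophagy and adenosine genes the glycolytic gene Gpi1 (3690 and 4028), Tfrc, encoding the transferrin receptor (3947 and 2976), Ncf4 (1084 and 963) and Cd69, an early activation marker (929 and 817), were abundant, and none was silent.

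The 46 silent genes had 3 to 11 counts, the range of the negative controls being 1 to 11. By role they included interleukins (Il5, Il9, Il13 and Il15), myeloid genes (Csf1r, Cd33, Trem1, Trem2 and Mpo) and B cell genes (Cd22 and Btk). Vcam1, Thbd, Thbs1 and the interferon-induced genes Ifit3, Rsad2, Oasl1 and Ddx60 were silent too. Other genes of these roles were detected, as given above. Both boundaries are crossed by small steps. Just within the silent tier lay Itgb4 (10 and 11 counts) and Trem2 (11 and 10), and just above it Ccr4 (13 and 12) and Ltk (12 and 13). At the upper boundary Irf1 (507 and 702) and Irf2 (653 and 549) were just inside the abundant tier, and Klrb1c and Cdkn1a (789 and 426) just outside. The genes nearest the median of all were Myd88 (103 and 91.4), Ctla4, Gbp5 (83.4 and 115), Lyn (84.3 and 108) and Pdcd1lg2 (109 and 89.2).

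The 2 libraries had the same overall shape, with a Pearson correlation of 0.968 and a Spearman correlation of 0.968 across the 498 genes, which share library and scale and are not independent. A check for a duplicated library gave a chi-square of 90.4 per degree of freedom over genes, where counting noise alone gives about 1. They were counted as 2 samples, and the check does not tell technical from biological spread. Over the 420 genes detected in both, the log2 difference had an SD of 0.65 and a median size of 0.32, against a median counting SD of 0.15. In 56 of these genes (13.3%) the libraries differed by more than 2-fold, 30 higher in replicate 3 and 26 in replicate 1. Abundant genes were not exempt, with 7 of 84 beyond 2-fold and an SD of 0.57, where their counting SD was at most 0.0748.

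Ly49 genes were among the furthest apart, in both directions. Klra4 was highest in replicate 3 relative to replicate 1, at 484 against 82.6, a log2 difference of 2.55, followed by Klra6 (2.02), Klrc2 (1.88), Cd74 (1.86) and H2-Ab1 (1.76). Higher in replicate 1 were Cd55 (-2.07), Ceacam1, an adhesion receptor gene (-2.00), Entpd1, encoding the ectonucleotidase CD39 (-1.93), Spp1 (-1.93) and Klra2 (-1.81). Marker genes of other cells moved with these differences in both directions. The summed myeloid and dendritic markers were at 191 in replicate 1 and 279 in replicate 3, and Cd3d at 22.5 and 64.4. In the myeloid sum H2-Aa rose with H2-Ab1 and Cd74, both named above, while Cd68 (49.2 and 35.1) and Cd14 (27.5 and 13.2) were lower in replicate 3. The summed neutrophil and mast cell markers were at 1202 and 504. Most of that sum was Ctsg (744 and 222) and Cma1 (362 and 179), while Kit was at 71.8 and 87.0. The part of these marker genes in the differences was not tested, and with 2 libraries no difference between the libraries can be tested.

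**Figure D5:**
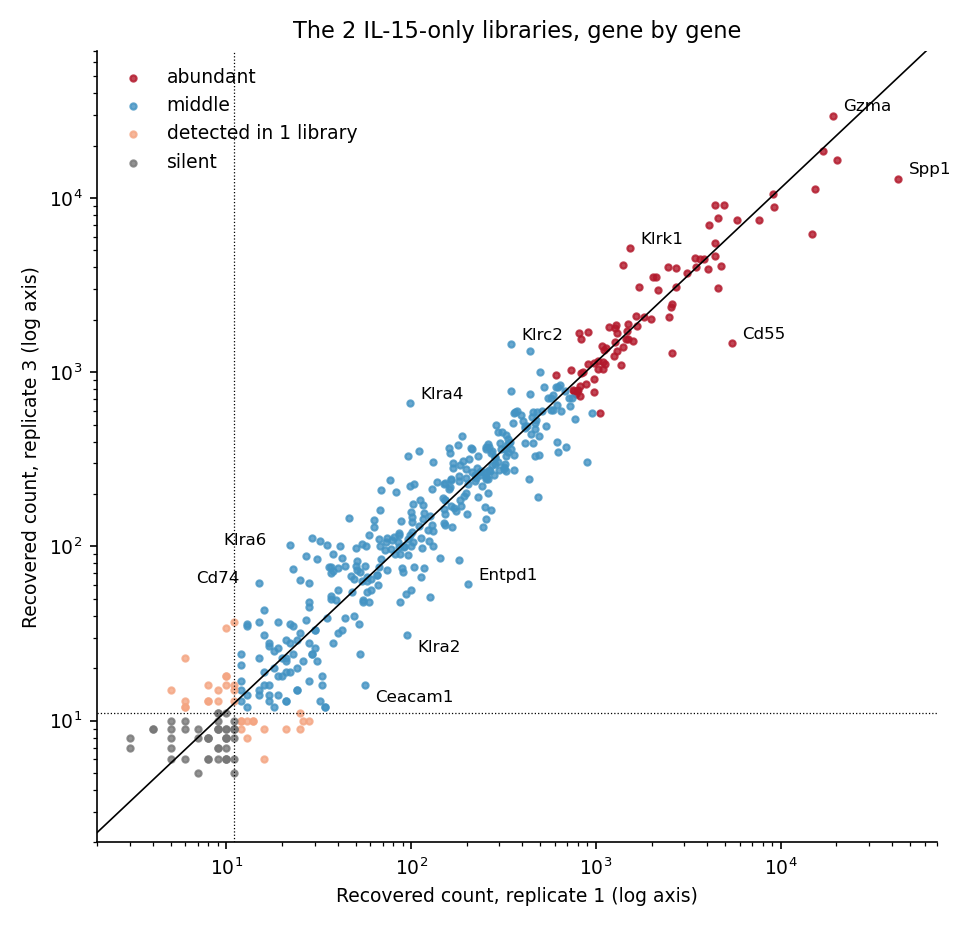
Recovered counts of the 498 endogenous genes in replicate 1 and replicate 3, both on log axes, coloured by tier. Dotted lines mark 11 counts, the highest negative control of each library, and the solid line marks equal normalised counts; most genes follow it, while Klra4, Klrc2 and Klrk1 lie above it and Spp1, Cd55 and Entpd1 below.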

How the data were processed

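The deposited values are log2 of nCounter counts scaled by the authors; the scaling is read from the values, since the mean log2 value of the 20 housekeeping genes is equal in both libraries. The labels' protocols describe quantitative PCR, whereas the table holds nCounter control probes. The package limma is listed, per the submitters' processing notes, with neither version nor role. Another 18 columns and 12 quality rows carry lane names that match no sample label, and were set aside.

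Genes and spike-in controls carry different scale factors. Counts were therefore recovered from the smallest step of each kind of probe (tolerance 0.01 of a whole number), and tiers were set on these counts. In 20 simulated libraries of 498 genes, 100% of the counts were recovered. Python 3.11.15, pandas 2.3.3 and SciPy 1.17.1 were used. No condition was compared. A chi-square over genes checked for a duplicated library, and no other test was run. Named genes were the 30 highest, the 4 highest and the silent members of each list, those at the tier boundaries and the median, and the 10 that differed most between the libraries; further members of a list are given as examples chosen after their values were seen. Members and lists were chosen with earlier results of these data known. The 19 function lists held 653 symbols, of which 369 were measured. Promoters were matched for 381 of 498 genes. A few genes that the rule names are not reported here.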

Additional observations from a re-analysis of the deposited data

How the results depend on the processing

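The 336 middle genes stayed within 1.5 times of that number under every alternative run. The 84 abundant genes depend on the boundary: there were 124 with the median of the housekeeping genes, 53 with a log2 value of at least 10 and 87 with the mean of linear values. The silent number, 46, was the least firm. It was 85 when at least 20 recovered counts were asked for, 78 when 1 library at or below the threshold was enough, and 84 with the weakest positive control as the limit, a setting chosen after seeing the data. It was 61 when the deposited log2 values of genes were set against those of the negative controls, which carry another scale factor, a setting also chosen after seeing the data. With 1 library left out the silent number ranged from 60 to 64, the middle number from 346 to 355, the abundant number from 83 to 88 and the share of the 10 highest genes from 34.6% to 43.8%. The SD of the log2 difference between the libraries was 0.68 over all 498 genes and 0.53 over the 253 genes with at least 100 recovered counts in both. Scaling cannot change that SD, but it moves the median difference from 0.02 to 0.16 with the total count and 0.27 with the positive controls. In replicate 1 the weakest positive control (0.125 fM) had 22 counts and the next (0.5 fM) had 14, so levels near the threshold have no dependable order. No paired analysis was possible because no groups were compared.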

Other observations

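Groups composed after the values were seen cover further genes. Of 25 MAP kinase, PI3 kinase and early-response genes 4 were abundant and none was silent, with a median log2 value of 7.71. Txk, a Tec family kinase of T and NK cells, was at a normalised count of 1163 and 1027, Pik3cd, a leukocyte PI3 kinase subunit, at 809 and 824, and Dusp6, a phosphatase that restrains ERK, at 819 and 670. The immediate-early genes Jun (410 and 316) and Fos (41.7 and 56.3) lay apart within the middle tier. The log2 difference between libraries had an SD of 0.29 over these genes, against 0.65 over all genes detected in both.

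Of 12 further interferon-induced genes none was abundant, 7 were middle and 3, Ddx60, Rsad2 and Oasl1, were silent. Herc6 was the highest at 188 and 181, and Nlrc5, a regulator of class I genes, was at 91.8 and 260. All 5 cell division and survival genes were middle, with 3 higher in replicate 3 and 2 in replicate 1. Birc5 was at 240 and 365 and Cdk1 at 19.2 and 54.1, while Trp53 was at 162 and 143 and Bmi1 at 98.5 and 54.9. Among abundant genes on no list were Cyfip2 (1810 and 2168), the intermediate filament gene Vim (1419 and 2270), Cd47, encoding the signal that restrains phagocytosis (1651 and 1470), and Hmgb1, a chromatin protein gene (1068 and 1369).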
